A study of Mus musculus with 2 samples.

Results

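The miR-7 family of the mouse consists of the hairpins Mir7-1, Mir7-2 and Mir7b. They were found by gene identifier among the 1973 listed microRNA genes, and all 3 were counted. The data are microRNA sequencing of total RNA from the hindbrain, the part of the brain that gives rise to the medulla, pons and cerebellum. The single group comprised 2 pools of B6NCrl embryos of both sexes at embryonic day 16.5, described as healthy and with no treatment in the labels. Replicate 2 was made from 37 embryos, and for replicate 1 the number is not stated in the labels. Each pool gave 1 library, and with a single group there was no comparison between conditions. The spread given here is that between 2 pools.

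miR-7 is one of the most conserved animal microRNAs and is enriched in neurons and in neuroendocrine cells, among them those of the pituitary and the pancreatic islets. It takes part in a circuit of noncoding RNAs in the brain. The circular RNA Cdr1as carries many miR-7 sites, the long noncoding RNA Cyrano directs the decay of miR-7, and miR-671 directs the cleavage of Cdr1as. In microRNAs, the seed, bases 2 to 8 from the 5′ end, chooses most targets.

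The mature arms are shown first because they decide which reads can be told apart. The sequences are those of RefSeq on GRCm38.p6, and all 3 hairpins matched by symbol. They run 5′ to 3′, with the seed in capitals.
miR-7a-5p, made by both Mir7-1 and Mir7-2: uGGAAGACuagugauuuuguugu
miR-7b-5p, made by Mir7b: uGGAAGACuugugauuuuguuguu
miR-7a-1-3p, made by Mir7-1: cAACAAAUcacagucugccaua
miR-7a-2-3p, made by Mir7-2: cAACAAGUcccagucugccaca
miR-7b-3p, made by Mir7b: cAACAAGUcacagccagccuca

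The 5p arms of all 3 hairpins carried the same seed, which no other hairpin in the RefSeq table has. Over the 23 bases compared, miR-7a-5p and miR-7b-5p differed by the single substitution A10U, counted from 1 at the 5′ end of miR-7a-5p. The miR-7b-5p entry is also 1 base longer, at 24 nt. The 3p arms differed more. miR-7a-1-3p and miR-7a-2-3p shared 19 of 22 bases, with A7G inside the seed, A10C and U21C, each with the Mir7-1 base first. Because of A7G, the 3p seed of Mir7-2 is that of Mir7b and not that of Mir7-1.

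The hairpins are printed with both annotated arms in capitals, to show what flanks them.
Mir7-1: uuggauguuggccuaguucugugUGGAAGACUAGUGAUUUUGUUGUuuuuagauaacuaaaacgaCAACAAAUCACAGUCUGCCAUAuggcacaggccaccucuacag
Mir7-2: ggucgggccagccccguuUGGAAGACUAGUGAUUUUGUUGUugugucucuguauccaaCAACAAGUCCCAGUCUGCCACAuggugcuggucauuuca
Mir7b: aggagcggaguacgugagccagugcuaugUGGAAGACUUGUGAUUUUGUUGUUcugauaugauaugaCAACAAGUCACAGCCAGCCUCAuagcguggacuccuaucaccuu

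Mir7-1 and Mir7-2 shared an unbroken run of 24 bases, the whole miR-7a-5p arm and 1 base beyond it. A read confined to this run matches both places exactly, and the deposited tables hold reads that map to several places only as a total. The longest run that Mir7b shared with either of the other two was 14 bases, shorter than any of the mature arms. Neither arm of Mir7b was contained in another hairpin of the RefSeq table, and the same held for both miR-7a 3p arms. The counts of Mir7-1 and Mir7-2 can therefore lie below the amount of miR-7a-5p that these loci make, and arms were not counted separately.

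**Figure D1:**
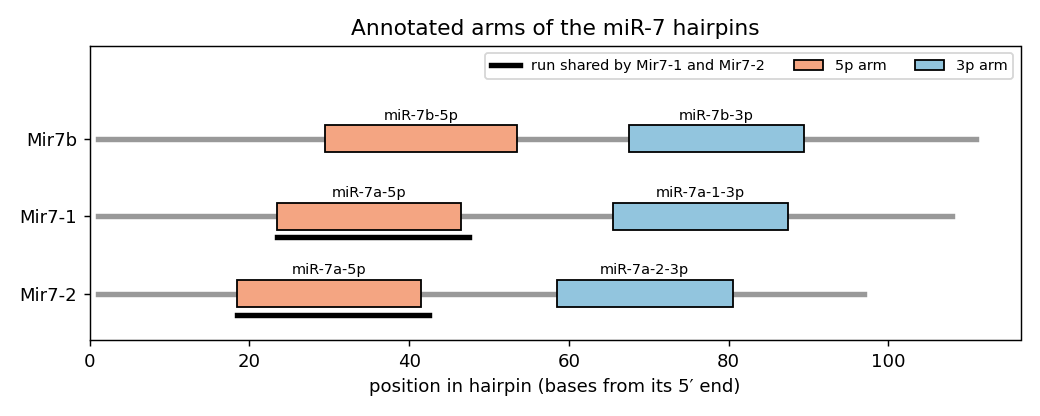
Map of the 3 hairpins, with position in bases from the 5′ end of each hairpin on the x axis; boxes are the annotated 5p and 3p arms, and the black bar is the longest run shared by Mir7-1 and Mir7-2. The bar spans 24 bases and covers the whole 5p arm of both, while the 3p arms lie outside it.

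The 3 hairpins lie on different chromosomes (mm10). Mir7-1 (ENSMUSG00000065434.1) lies on chromosome 13, from 58392779 to 58392886 on the minus strand. It is inside Hnrnpk, the gene of an RNA-binding protein, on the same strand, and in an intron of all 8 protein-coding and 4 retained-intron transcripts that span it in GENCODE M21. Mir7-2 (ENSMUSG00000065609.1) lies between genes on chromosome 7, from 78888277 to 78888373 on the plus strand, with Aen 7481 bases away as the nearest annotated gene. Mir7b (ENSMUSG00000065491.1) lies on chromosome 17, from 56242988 to 56243098 on the plus strand, and overlaps no other annotated gene. The long noncoding gene AC026385.1 ends 183 bases upstream of it on the same strand.

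The hairpins also differed in length and predicted folding. Mir7-1 has 108 bases, of which 41.7% are G or C, Mir7-2 has 97 with 50.5%, and Mir7b has 111 with 46.8%. The minimum free energy predicted by RNAfold was -46.8 kcal/mol with 44 base pairs for Mir7-1, -40.5 kcal/mol with 36 pairs for Mir7-2 and -35 kcal/mol with 36 pairs for Mir7b. The arms are 19, 17 and 14 bases apart in Mir7-1, Mir7-2 and Mir7b. These are predictions from sequence and were not measured.

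Sense counts on microRNA genes came to 5097205 of 11018624 reads in replicate 1 and to 4460836 of 9729498 in replicate 2. Multimapping reads made up 34.5% and 35.1% of all reads. The Hox-cluster list (2 of 2, Mir10a and Mir10b) and the neural list (5 of 5) were detected, as were 19.5% of all listed genes. Detection meant at least 10 counts in both libraries. The lists were chosen with earlier results known, so detection says nothing about tissue identity. The neural list summed to 29342 and 28796 CPM (counts per 1000000 sense counts) in replicates 1 and 2. Most of it was Mir149, at 18373 and 19696 CPM. The Mir124a hairpins are outside that list. Mir124a-2 had 11 and 3 counts, Mir124a-3 had 1 and 2, and Mir124a-1 had 35 over both libraries. The libraries stood apart in the skeletal muscle list, which summed to 375 and 24.9 CPM, nearly all of it Mir206, and in the Hox-cluster microRNA Mir196b, with 859 and 146 counts, or 168.5 and 32.7 CPM. Mir196b was named after its values were seen.

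Among uniquely placed reads, Mir7b was the most abundant miR-7 hairpin in both libraries. It had 6399 counts in replicate 1 and 5207 in replicate 2, or 1255 CPM (95% exact binomial interval 1225 to 1287) and 1167 CPM (1136 to 1199). The mean was 1211 ± 62.3 CPM (SD, n = 2). Replicate 1 was the higher library, and the counting intervals did not overlap.

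Mir7-1 came next, with 1739 and 1260 counts in replicates 1 and 2. These were 341 CPM (interval 325 to 358) and 282 CPM (267 to 298), a mean of 312 ± 41.5 CPM (SD, n = 2). Mir7-2 was the lowest, with 1298 and 888 counts. These were 255 CPM (interval 241 to 269) and 199 CPM (186 to 213), a mean of 227 ± 39.3 CPM (SD, n = 2). Replicate 1 was again the higher library for both, and the Mir7-2 value of replicate 1 lay below the Mir7-1 value of replicate 2. Reads of miR-7a-5p that fit both Mir7-1 and Mir7-2 are not in these values, so the gap to Mir7b is one of uniquely placed reads. In whole tissue, fewer cells that make a microRNA and less of it per cell cannot be told apart.

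**Figure D2:**
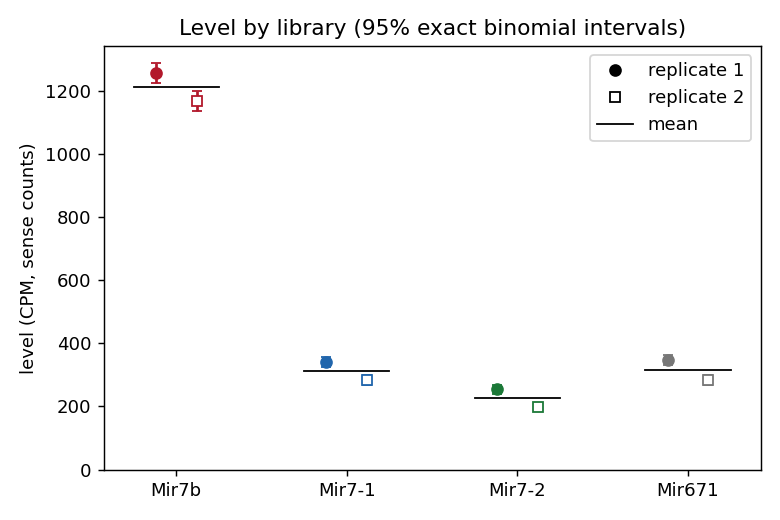
Level of the 3 miR-7 hairpins and of Mir671 in CPM; filled circles are replicate 1, open squares are replicate 2, bars are 95% exact binomial intervals and lines are means of 2 libraries. Mir7b stands at 1255 and 1167 CPM, above the other hairpins, which lie between 199 and 346 CPM. Only uniquely placed reads are counted, without those of miR-7a-5p that fit both Mir7-1 and Mir7-2.

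All 3 hairpins were detected, that is, had at least 10 counts in both libraries, as did 19.5% of all listed genes. Mir7b ranked 91 by mean CPM among all listed genes, Mir7-1 ranked 148 and Mir7-2 ranked 163. These ranks rest on uniquely placed reads, without those of miR-7a-5p that fit both Mir7-1 and Mir7-2. Of the 385 detected genes, 294 lay below Mir7b, 237 below Mir7-1 and 222 below Mir7-2, and the median detected gene had 150.2 CPM. For scale, Mir99a, the most abundant gene, reached 176698 ± 14552 CPM (SD, n = 2). The opposite strand of each miR-7 hairpin held 0 counts in both libraries, and the limit this sets is 0.589 CPM for replicate 1 and 0.673 CPM for replicate 2.

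**Figure D3:**
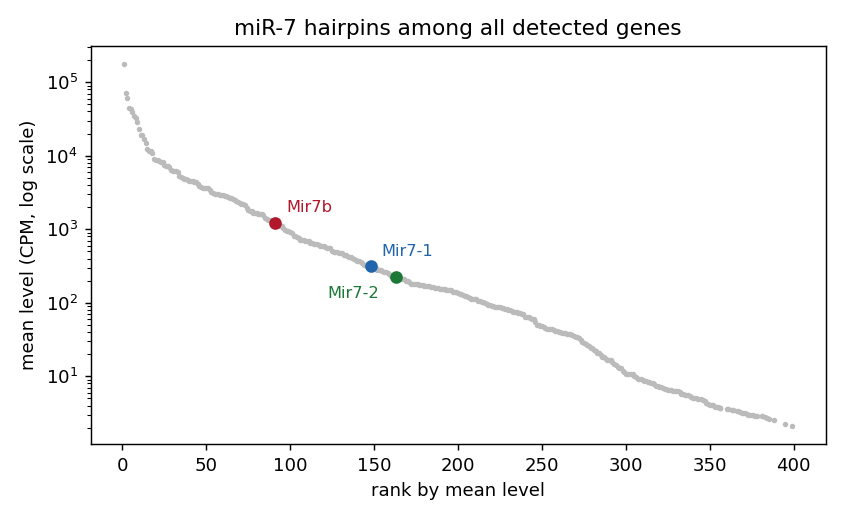
Mean level in CPM on a log axis against rank for the 385 detected genes; grey points are genes and coloured points are the miR-7 hairpins. Mir7b ranks 91, Mir7-1 ranks 148 and Mir7-2 ranks 163, all above the median detected gene of 150.2 CPM. Levels are of uniquely placed reads, without those of miR-7a-5p that fit both Mir7-1 and Mir7-2.

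Together the family held 9436 counts in replicate 1 and 7355 in replicate 2. This was 0.185% of sense counts (95% exact binomial interval 0.181% to 0.189%) and 0.165% (0.161% to 0.169%). Mir7b supplied 67.8% of the family's counts in replicate 1 (interval 66.9% to 68.8%) and 70.8% in replicate 2 (69.7% to 71.8%), a mean of 69.3% ± 2.11 (SD, n = 2). Mir7-1 supplied 17.8% ± 0.918 and Mir7-2 12.9% ± 1.19 (SD, n = 2). These are shares of uniquely placed reads, and reads of miR-7a-5p that fit both Mir7-1 and Mir7-2 are not in them. The share of miR-7b among all miR-7 molecules was therefore not measured. The family's counts equalled 0.248% and 0.216% of the number of multimapping reads in replicates 1 and 2, and how many of those reads are miR-7a-5p is not known.

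The hairpins had the same order in both libraries. Ratios were called different when both libraries had the same sign and the mean log2 ratio exceeded 2 SD, because with 2 libraries the smallest p of an exact sign-flip test is 0.5. Mir7b exceeded Mir7-1 by 3.68-fold in replicate 1 and 4.13-fold in replicate 2, a mean log2 ratio of 1.96 ± 0.12 (SD, n = 2). It exceeded Mir7-2 by 4.93-fold and 5.86-fold, a mean log2 ratio of 2.43 ± 0.18 (SD, n = 2). Mir7-1 exceeded Mir7-2 by 1.34-fold and 1.42-fold, a mean log2 ratio of 0.46 ± 0.06 (SD, n = 2). All 3 pairs passed. These ratios compare uniquely placed reads, without those of miR-7a-5p that fit both Mir7-1 and Mir7-2, and the ratio of miR-7b to miR-7a molecules was not measured. A ratio within a library does not depend on how libraries are scaled, but the rule covers only the spread between 2 libraries. Reads cover a mature arm rather than the hairpin, so counts were not divided by hairpin length. After division by length the mean log2 ratios had the same signs and passed the same limit.

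Mir7-1 and Mir7-2 are 1 of 16 pairs of detected hairpins in which exactly 2 hairpins of the RefSeq table carry an identical mature arm. The log2 ratio of the higher over the lower copy, which is positive by construction, ranged from 0.36 for Mir135a-1 over Mir135a-2 to 6.68 for Mir181b-2 over Mir181b-1, with a median of 1.41. At 0.46, the miR-7 pair had the third smallest ratio, between Mir125b-2 over Mir125b-1 at 0.41 and Mir138-1 over Mir138-2 at 0.58. Its 2 libraries gave 0.42 and 0.50. Mirlet7c-2 occurs in 2 of the 16 pairs. Reads of a shared arm that fit both copies are not in these counts. The ratios therefore do not measure how much of the shared arm each copy makes. Of the 87 listed hairpins that share an arm with any other, 45 were detected, with a median of 168 CPM. Of the 829 listed hairpins with no shared arm, 301 were detected, with a median of 155 CPM. Mir7-1 and Mir7-2 lay above both medians.

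**Figure D4:**
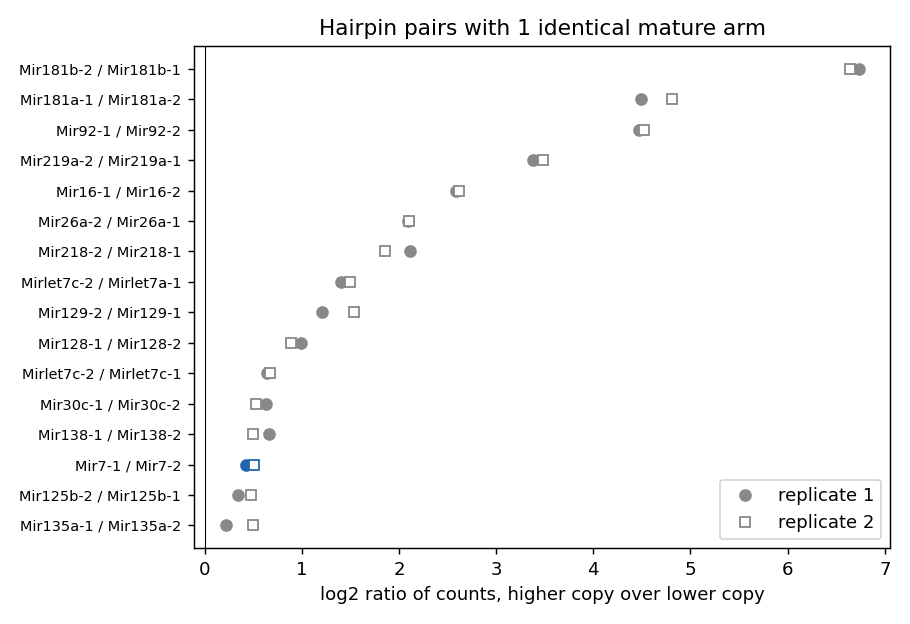
Log2 ratio of counts of uniquely placed reads, higher over lower copy, for 16 hairpin pairs with an identical mature arm; circles are replicate 1 and squares replicate 2, and the miR-7 pair is blue. The miR-7 pair lies near the low end, at 0.42 and 0.50, and the pairs reach 6.68 on average over both libraries.

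The other microRNA of the circuit, Mir671, was close to Mir7-1 in uniquely placed reads. It had 1765 and 1269 counts in replicates 1 and 2, or 346 and 284 CPM, a mean of 315 ± 43.7 CPM (SD, n = 2). The log2 ratio of Mir7-1 over Mir671 was -0.02 (exact binomial interval -0.12 to 0.07) for replicate 1 and -0.01 (-0.12 to 0.10) for replicate 2. Both counting intervals include 0. The mean of -0.02 ± 0.01 (SD, n = 2) lies at 2.01 SD, so the rule used for the miR-7 pairs, which ignores counting error, would call this ratio different. The ratio was computed after the levels were seen. Reads of miR-7a-5p that fit both Mir7-1 and Mir7-2 are not in it, so amounts of miR-7 and miR-671 molecules were not compared. Cdr1as and Cyrano are long RNAs and are not measured by these libraries.

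Levels nearest to each miR-7 hairpin were taken from the 2 genes above and the 2 below it in mean CPM. For Mir7b these were Mir132, an activity-regulated microRNA of neurons, at 1310 ± 72.7 CPM, Mir532 at 1212 ± 60.7, Mir300 at 1145 ± 14.8 and Mir467c at 1132 ± 128 (SD, n = 2). Mir532 was the closest, with an absolute difference of mean log2 CPM of 0.0014 over 2 libraries. Around Mir7-1 lay Mir874, Mir671, Mir496a and Mir210, from 321 ± 0.337 to 300.7 ± 20.1 CPM (SD, n = 2), all within a log2 difference of 0.05. Mir7-2 lay among Mir672, Mir421, Mirlet7a-2 and Mir135a-1, from 233 ± 33.8 to 221 ± 3.14 CPM (SD, n = 2), with Mir421 the closest at a log2 difference of 0.01. All 3 miR-7 hairpins lay within 1 SD of at least 1 of these neighbours, which were chosen by level, so their closeness is by construction. Levels of Mir7-1 and Mir7-2 are without the reads of miR-7a-5p that fit both.

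All members of the pancreatic list, the erythroid list and the pituitary, neuroendocrine and epithelial list were also detected, as were 19.5% of all listed genes. Among uniquely placed reads, Mir375 and Mir217 lay above Mir7-1 and Mir7-2 and below Mir7b in both libraries. The counts of Mir7-1 and Mir7-2 lack reads of miR-7a-5p that fit both. The pituitary, neuroendocrine and epithelial list had 6 of 6 members detected and summed to 779 and 714 CPM in replicates 1 and 2, most of it Mir375 at 593 and 604 CPM, a microRNA of endocrine cells. Mir141, Mir200a, Mir200b, Mir200c and Mir429 each stayed between 4.26 and 100.1 CPM, and none was at 0. The pancreatic list, Mir216a, Mir216b and Mir217, had 3 of 3 detected and summed to 639 and 677 CPM, most of it Mir217 with a mean of 422 ± 3.67 CPM (SD, n = 2). The erythroid list, Mir451a and Mir144, had 2 of 2 detected and summed to 182 and 174 CPM. The family's 1851 and 1649 CPM exceeded each of these sums in both libraries. The part of cells that carry these markers in the miR-7 levels was not tested.

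Mir7-1 and Mir7-2 were higher in replicate 1 by more than counting noise, and Mir7b was not shown to differ. The share of each gene's counts in either library was set against totals scaled by TMM, edgeR's trimmed mean method, in a two-sided exact binomial test, with Benjamini-Hochberg adjustment over 401 genes. The test compares 2 libraries, not conditions. Mir7-1 had a log2 ratio of replicate 2 over replicate 1 of -0.21 (exact binomial interval -0.31 to -0.10, adjusted p = 0.000323). Mir7-2 had -0.29 (-0.42 to -0.17, exact binomial adjusted p = 1.38e-05). Mir7b had -0.04 (-0.09 to 0.01, exact binomial adjusted p = 0.237).

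Such calls were common, as 46.4% of tested genes passed. Replicate 1 was higher for 24.4% and replicate 2 for 21.9%, and both miR-7 calls were in the direction of replicate 1. The median absolute log2 ratio of all tested genes was 0.18, close to the size seen for Mir7-1. Mir671 gave -0.22 (exact binomial adjusted p = 0.000129). edgeR's exact test also allows for spread between pools, through a biological coefficient of variation (BCV). At a BCV set to 0.1, 1.75% of genes passed and 0 of the 3 miR-7 hairpins did, and 0 had an unadjusted p under 0.05. Their edgeR adjusted p was 0.937 for Mir7-1, 0.805 for Mir7-2 and 1 for Mir7b. At the BCV estimated from the libraries themselves, 0.748% of genes passed, with 0 of the miR-7 hairpins among them at an adjusted or unadjusted p under 0.05. Without TMM scaling, Mir7b passed as well, at -0.11 (exact binomial adjusted p = 0.000279), and the split of all calls became 131 higher in replicate 1 and 62 in replicate 2, against 98 and 88. Mir206 also differed, with 1884 counts in replicate 1 and 108 in replicate 2. Of the 6 pituitary, neuroendocrine and epithelial markers, Mir429, at 100.1 and 54.7 CPM, and Mir200c, at 43.9 and 24.2 CPM, passed as higher in replicate 1. Their log2 ratios were -0.81 (exact binomial adjusted p = 1.11e-12) and -0.80 (exact binomial adjusted p = 6.09e-06). Mir375 passed as higher in replicate 2, at 0.09 (exact binomial adjusted p = 0.041). Mir141, Mir200a and Mir200b did not pass, with log2 ratios of -0.23, -0.35 and -0.39. In the pancreatic list, Mir216b passed at 0.36 (exact binomial adjusted p = 1.18e-05), while Mir216a and Mir217 did not, at 0.12 and 0.08. The erythroid markers passed in opposite directions, Mir144 at -0.39 (exact binomial adjusted p = 0.00125) and Mir451a at 0.27 (exact binomial adjusted p = 0.00786). The part of tissue that carries these markers or Mir206 in the miR-7 values was not tested.

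**Figure D5:**
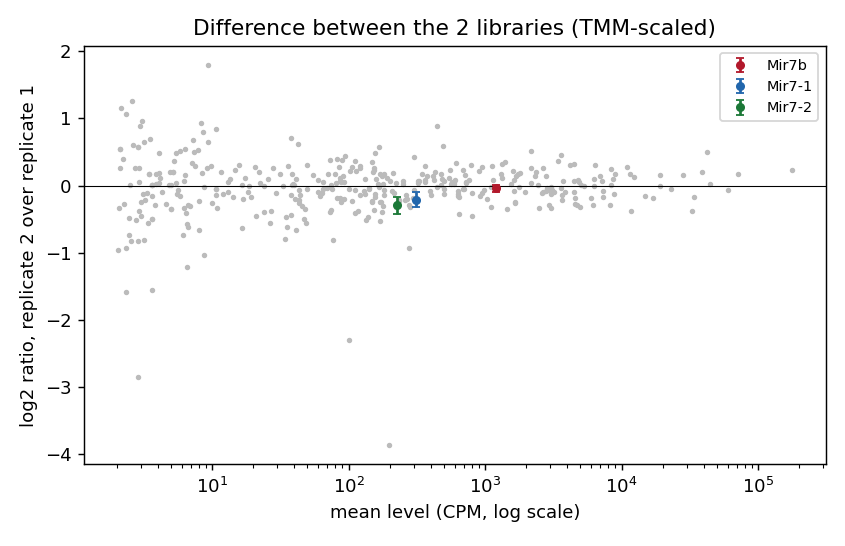
Log2 ratio of replicate 2 over replicate 1 after TMM scaling against mean level in CPM on a log axis, for 401 genes; coloured points are the miR-7 hairpins with 95% exact binomial intervals. Mir7-1 and Mir7-2 lie at -0.21 and -0.29, with lower ratios in 24.4% and 17.5% of tested genes, and Mir7b lies at -0.04.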

How the data were processed

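Per the text files deposited with the samples, the authors' tables use the mm10 assembly and annotation release M4, and they hold unnormalized read counts. Aligner and counter: not given in the sources used here. A table lists counts for either strand and for each strand alone, after 4 summary lines, left out of all totals because they name no gene. Column 3 was used as the sense count. Versions were removed from the identifiers, which were then looked up in GENCODE M21 on the same assembly, with 1894 of 1973 matched.

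CPM is a gene's count per 1000000 sense counts of its library. Intervals are 95% exact binomial. A count of 0 allows up to 3 counts. Both cover counting error only, since several reads can stem from 1 molecule where no molecular identifiers are used. Pools are separate samples per the labels, and whether they share litters is not stated. The exact binomial p-values cover counting noise only. Those of edgeR rest on a BCV that was either set or estimated from the same libraries. The library test took genes that reached 20 counts over both libraries, at an adjusted p of 0.05. It was also run on simulated counts with counting noise only, which cannot show how it behaves with spread between pools. The members and lists were chosen with earlier results of these data known. Named genes are the members, the circuit and marker lists, the nearest 2 above and below each member in level, and the most abundant gene. The two-copy pairs and the ratio to Mir671 were added after the data were seen. Alternatives were the either-strand counts, other totals and scalings, pseudocounts, count minimums, each library alone and edgeR's exact test. The software was RNAfold 2.7.2, R 4.3.3 with DESeq2 1.42.0 and edgeR 4.0.16, and Python 3.11.15 with scipy 1.17.1, pandas 2.3.3, numpy 2.4.6 and matplotlib 3.10.9.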

Additional observations from a re-analysis of the deposited data

How the results depend on the processing

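No paired analysis was possible because there is a single group. All 3 ratios between miR-7 hairpins kept their sign and stayed past the limit with either-strand counts, with pseudocounts of 0.5 and 1 and after division by hairpin length, the last chosen after seeing the data, and each library alone gave the same sign. With multimapping reads in the total, the levels of Mir7-1, Mir7-2 and Mir7b fell to 177.7, 129 and 690.3 CPM. Without the most abundant gene in the total they were 378, 275 and 1471 CPM. These shifts follow from the size of the total and leave the order as it was. Either-strand counts, TMM totals and DESeq2 size factors moved the levels by less than the SD. Mir7b ranked between 88 and 92 when either replicate was left out. The count of genes that differed between the libraries, 186 with the exact binomial test, was 7 with edgeR's exact test at a BCV of 0.1 and 3 at a BCV of 16.3%, the estimate made on the same libraries, since both allow for spread beyond counting. For the log2 ratio of Mir7-1 over Mir7-2, exact binomial limits were 0.32 and 0.53 (replicate 1) and 0.38 and 0.63 (replicate 2), beside an SD of 0.06 between libraries. Leaving Mir206 and Mir196b out of the totals and the test, chosen after seeing the data, changed no call for the miR-7 hairpins.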

Other observations

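The long RNAs of the miR-7 circuit are not measured here, but their sequences can be searched for letters complementary to the miR-7 seed. The letters GTCTTCC, complementary to bases 2 to 8 of all 3 5p arms, were counted on the transcript strand of the 68537 GENCODE M21 transcripts of at least 1000 bases. Of these, 22.7% held at least 1 match, and the median was 0. Of 7 such transcripts of Cdr1os, the RefSeq symbol of the Cdr1as locus, 2 held the highest numbers of all. C230004F18Rik-210 has 125 matches in 19658 bases, and C230004F18Rik-206 has 123 in 3354 bases. The other 5 transcripts held 0 or 1 match. Cyrano, the RefSeq gene Oip5os1, held 2 in the 8300 bases of 1700020I14Rik-202. A match is a description of letters and not a shown site.

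Below are the windows of 26 bases, 5′ to 3′ and ending opposite base 1 of miR-7, whose match to the rest of miR-7a-5p was longest, with the seed match in capitals. They show how the letters beyond the seed match differ between the transcripts, and pairing was neither modelled nor measured.
Cyrano: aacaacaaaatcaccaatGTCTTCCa
Cdr1os: gtcttccacaaaattcagGTCTTCCa
The Cyrano window lies at bases 2934 to 2959 of its transcript and holds an unbroken run of 13 bases complementary to miR-7a-5p beyond the seed match. The longest such run at any Cdr1os match was 7 bases. The Cdr1os window also opens with another copy of the counted letters, left in lower case and outside that run.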
